A study of Mus musculus with 102 samples.

Results

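Transcripts of 35 genes that mark monocytes (16 genes), border macrophages (9) and neutrophils (10) were followed through RNA of microglia sorted from the mouse lumbar spinal cord. The genes were chosen by name, as markers of these 3 cell types, with earlier results of these data known. They make up 35 of the 53715 genes in the count table. Wild type (WT) mice were compared with ABC-imKO mice (KO), whose genotype is Abca1fl/fl Abcg1fl/fl Cx3cr1-CreERT2, so that both cholesterol transporter genes are floxed and Cre is driven by Cx3cr1. Naive mice had no injection. The other mice were given cisplatin intraperitoneally on days 1 and 3 and then, on day 7, either saline or the apolipoprotein A-I binding protein AIBP into the intrathecal space.

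The 6 groups are named naive WT, saline WT and AIBP WT, and naive KO, saline KO and AIBP KO, where saline and AIBP always mean cisplatin first. Each had 3 numbered samples (1 to 3 naive, 4 to 6 saline, 7 to 9 AIBP) except AIBP WT, which had 2 (7 and 9), and each sample was sequenced as 3 technical libraries. It is not stated if the RNA of a sample came from 1 mouse or from several, and p-values cover only the spread among these samples, which may be technical. Neither ages nor the schedule of Cre induction are given in the labels. Cx3cr1 is active in microglia and also in border macrophages and some monocytes, so the floxed genes could be deleted in those cells as well. A comparison of saline with naive holds the intrathecal injection along with cisplatin.

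Microglia settle in the nervous system before birth and renew themselves there. Border macrophages live around vessels and in the meninges and carry scavenger receptors such as CD163 and the mannose receptor. Monocytes are made in bone marrow, reach inflamed tissue through the chemokine receptor CCR2 and can become macrophages there, while neutrophils carry granules filled with S100 proteins, proteases and antimicrobial peptides. All of them are myeloid cells, and several marker genes, among them Lyz2, Csf3r and Ms4a6c, are also transcribed in microglia.

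Samples held 45.1 to 76.6 M counts. Levels below are in CPM (counts per M counts of the library, scaled by edgeR's TMM) and differences are log2 fold changes ± SE, called where edgeR's adjusted p, taken over all 20461 genes tested, was under 0.05. The label of sorted microglia was met by 15 microglial genes, none at 0, which summed to 29058 to 99732 CPM. That sum was 74281 to 99732 CPM in the naive samples and 29058 to 59371 in saline, with 5 of the 15 called lower in WT and 13 in KO. Of the targeted genes, Abca1 stood at 87.3, 114 and 106 CPM in naive WT and 105, 78.6 and 66.1 in naive KO. For Abcg1 the levels were 160.2, 91.7 and 107 and 41.6, 66.4 and 56 CPM. Counts were summed over a whole gene, exons that are not floxed included, so they do not check the deletion. In bulk RNA, fewer cells of a type and less RNA per cell cannot be told apart.

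The upstream sequences of 4 members are shown because these genes carry the main patterns: Ms4a6c and Csf3r changed in both genotypes and in opposite directions, while Chil3 and Pf4 appeared in a few samples or libraries. They come from RefSeq on GRCm38.p6, run 5′ to 3′ on the gene's own strand up to its annotated start, and capitals mark a match to a searched motif. The members' promoters were found for 30 of 35 genes, as 34 windows of 250 bases.
Ms4a6c, chr19:11469118-11469365, plus strand: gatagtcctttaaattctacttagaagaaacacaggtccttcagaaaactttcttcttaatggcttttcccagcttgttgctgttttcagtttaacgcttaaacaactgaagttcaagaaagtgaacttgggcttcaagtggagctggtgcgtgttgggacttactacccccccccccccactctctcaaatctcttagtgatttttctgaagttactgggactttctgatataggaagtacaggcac
Csf3r, chr4:126024409-126024549, plus strand: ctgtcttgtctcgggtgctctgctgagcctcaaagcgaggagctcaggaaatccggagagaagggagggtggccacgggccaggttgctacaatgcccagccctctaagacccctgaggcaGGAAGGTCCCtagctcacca
Chil3, chr3:106167565-106167814, minus strand: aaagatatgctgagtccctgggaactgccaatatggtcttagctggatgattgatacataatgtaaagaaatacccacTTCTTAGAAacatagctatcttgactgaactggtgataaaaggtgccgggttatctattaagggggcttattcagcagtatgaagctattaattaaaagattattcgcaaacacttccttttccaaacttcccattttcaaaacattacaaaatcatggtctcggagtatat
Pf4, chr5:90772185-90772434, plus strand: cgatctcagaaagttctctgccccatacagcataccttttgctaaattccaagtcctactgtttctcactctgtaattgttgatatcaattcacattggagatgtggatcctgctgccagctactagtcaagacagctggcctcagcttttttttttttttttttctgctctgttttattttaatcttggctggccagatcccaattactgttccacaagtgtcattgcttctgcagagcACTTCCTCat
Searched on both strands were a PU.1 box (GAGGAAGT), a C/EBP palindrome (TTGCGCAA), an AP-1 site (TGANTCA), a STAT site (TTCNNNGAA) and an NF-kB site (GGGA, then any pair of bases, then TTCC). The PU.1 letters stood in 5 of the 34 windows, those of Ly6c2, Mmp8, Pf4 and S100a8, against 2.44% of 32851 promoters. Ly6c2 gave overlapping windows that share a site, so that site is counted more than once. For Ly6c2, Mmp8 and S100a8, the bases just downstream of the window were not found in an annotated transcript of the gene. The NF-kB letters stood in the window of Csf3r (1.21% of promoters), the STAT letters in that of Chil3 (7.02%) and the AP-1 letters in that of Ms4a7 (6.75%). The C/EBP letters were in none of the members' windows (0.164%), and in the 4 windows shown no motifs overlapped. These matches describe letters in a window and do not show binding.

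**Figure D1:**
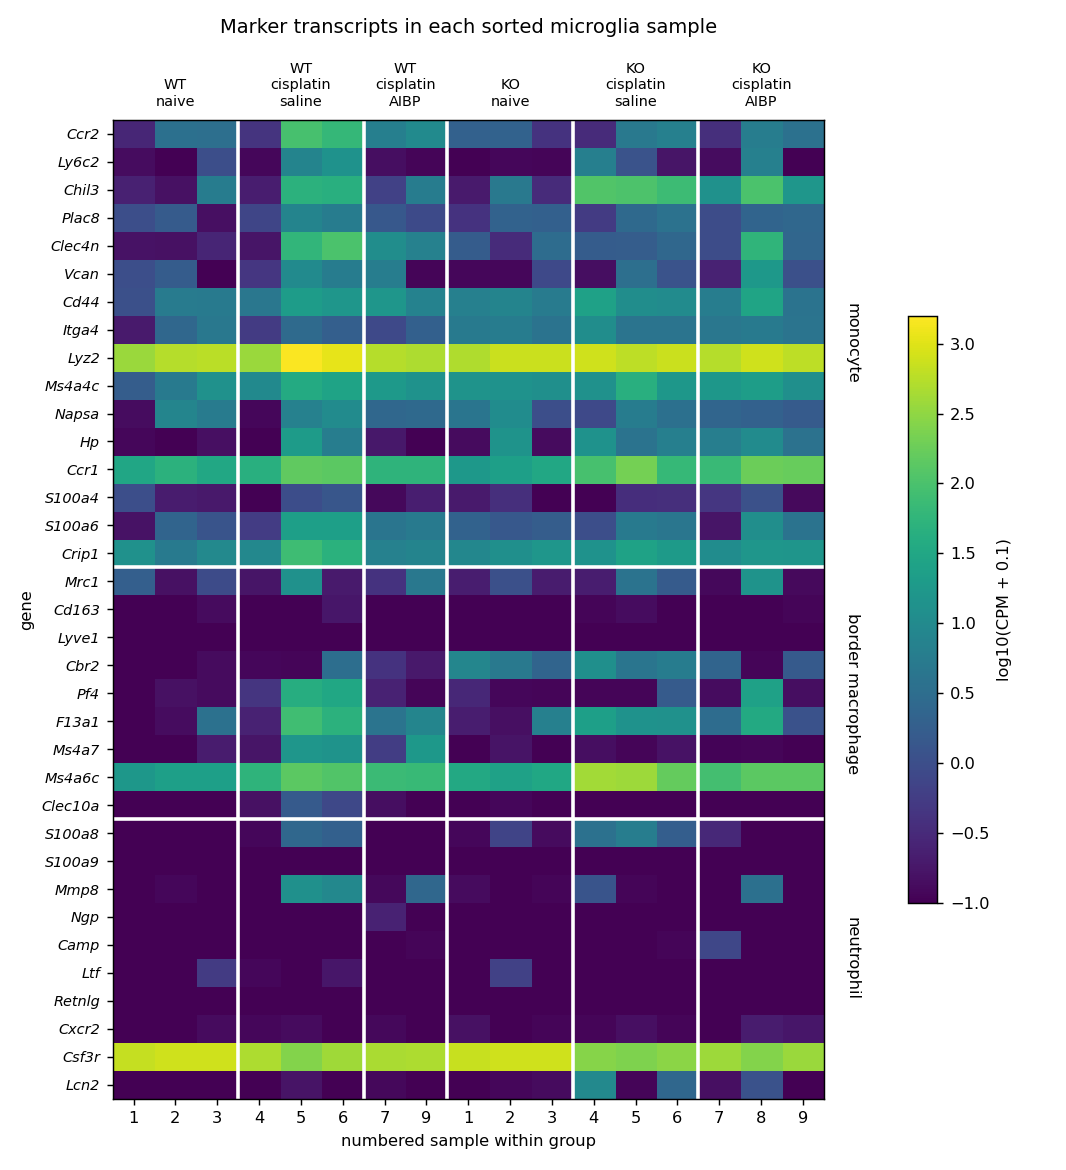
Level of each of the 35 markers (rows, grouped by cell type) in each of the 17 samples (columns, grouped by genotype and treatment), coloured by log10(CPM + 0.1). Saline WT 5 and 6 hold the 2 highest values for 11 members (share over all genes not given), and several neutrophil rows are dark throughout.

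Of the 35 members, 27 reached 1 CPM in at least 1 sample: 16 of 16 monocyte, 7 of 9 border macrophage and 4 of 10 neutrophil genes. Only Lyz2, Ccr1, Ms4a6c and Csf3r stood above 10 CPM in all 17 samples, naive ones included. The filter on low counts kept 28 members for testing and left out Cd163, Lyve1, S100a9, Ngp, Camp, Retnlg and Cxcr2. A member that passed the filter only through the group where it was high was bound to have a higher mean there. Clec10a, with 135 of its 138 counts in saline WT, is such a member. A difference of that kind is no test, and edgeR need not call it.

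The 3 samples of saline WT were unlike each other. Samples 5 and 6 held the 2 highest of all 17 values for 11 members, 7 monocyte genes (Ccr2, Ly6c2, Plac8, Clec4n, Lyz2, S100a6 and Crip1), 3 border macrophage genes (Pf4, F13a1 and Clec10a) and the neutrophil gene Mmp8. Sample 4 stayed near the naive samples for most of them. The share of all genes with their 2 highest values in samples 5 and 6 is not given. This pair was picked from these same values. Without Lyz2, the monocyte members summed to 566 and 510.5 CPM in samples 5 and 6, to 71.3 in sample 4 and to 49.1 to 85 in naive WT. Without Ms4a6c, the border macrophage members summed to 152 and 99.1 CPM against 0.724 and 0.142 to 4.63.

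In WT mice, cisplatin and intrathecal saline were followed by a change in 4 of the 28 tested members, where 2.91% of all genes tested were called. Of these, 3 were higher (1.95% of all genes) and 1 lower (0.953%). Ms4a6c, a membrane-spanning protein of the MS4A family, rose from 21.1 ± 3.9 to 102 ± 44 CPM (SD, n = 3 each). Clec4n, which encodes the fungal-sugar receptor Dectin-2, and Crip1, a small LIM-domain protein, also passed. Csf3r, the receptor for granulocyte colony-stimulating factor, fell from 756 ± 74 to 378 ± 104 CPM. DESeq2 called 14 members in this contrast, the same 4 and Cbr2, Ccr1, Ccr2, Hp, Mmp8, Ms4a4c, Ms4a7, Pf4, S100a6 and S100a8, all 10 higher, and limma-voom called 2. With no filter or a stricter one, edgeR called 8, the same 4 and Ccr1, Hp, Ms4a7 and Pf4. With sample 4 left out, edgeR called the 4 and Ccr1, Hp, Lyz2 and Ms4a7. The 2.91% is for the main edgeR fit, and the share of all genes called in these alternatives is not given. Without samples 5 and 6, which leaves 1 sample in the group with its spread taken from the others, 0 members were called and Clec4n had a log2 fold change of -0.30.

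In KO mice, 3 of the 28 changed, where 4.41% of all genes were called, 2 of them higher (2.42% of all genes) and 1 lower (1.99%). Ms4a6c rose from 30.2 ± 4.8 to 320.1 ± 139 CPM, Ccr1, a receptor for inflammatory CC chemokines, rose from 24.5 ± 7.7 to 125 ± 79, and Csf3r fell from 757 ± 49 to 273 ± 24 (SD, n = 3 each). In 7 of the 9 contrasts, those on AIBP, genotype and the differences between genotypes, edgeR called 0 members. The 2 contrasts share no sample, and the difference between genotypes in the cisplatin effect was tested and called for no member.

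**Figure D2:**
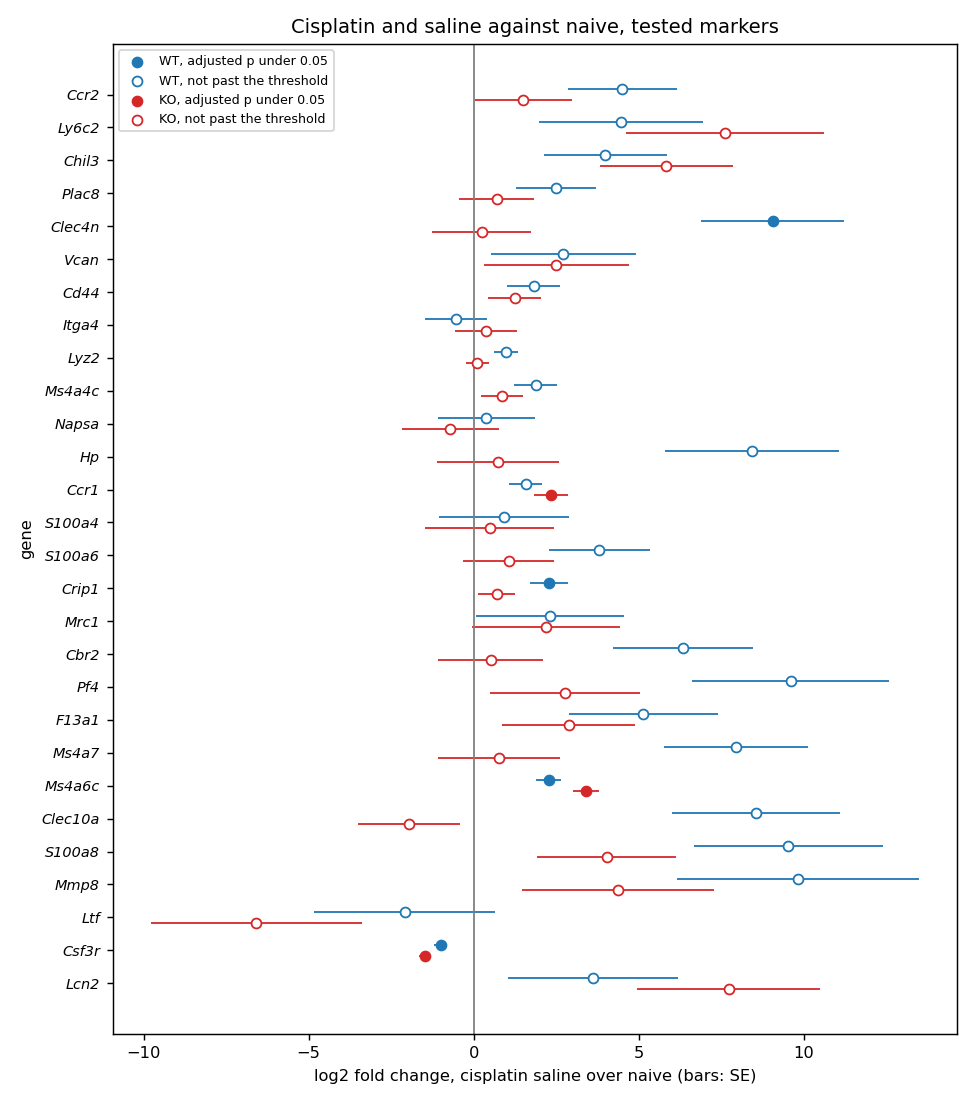
Log2 fold change of saline over naive (horizontal axis, bars are SE) for the 28 tested members (rows), in WT (blue) and KO (red), with filled points for an adjusted p under 0.05. Ms4a6c is called higher and Csf3r lower in both genotypes, and the bars of Pf4, Mmp8 and S100a8 are wide.

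Ms4a6c (chromosome 19, 11469366 to 11482192, plus strand) was higher in every cisplatin sample than in the naive samples of its genotype. It stood at 16.6, 23.2 and 23.6 CPM in naive WT, 53.5, 140.2 and 113 in saline WT and 72.3 and 68.4 in AIBP WT. KO samples had 34.3, 25 and 31.2 CPM in naive, 416, 383 and 161 in saline and 89.3, 137 and 140.2 in AIBP. Sample 4 of saline WT, low for other markers, was above all 3 naive WT samples too. The rise was called in WT (log2 fold change 2.27 ± 0.37, adjusted p = 0.00596) and in KO (3.41 ± 0.39, adjusted p = 0.000515). The KO call held under every alternative tried, while the WT call was lost with limma-voom (adjusted p = 0.0591), when only the 2 groups compared were fitted (0.0568) and without samples 5 and 6 (log2 fold change 1.39, adjusted p = 0.468).

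Reads of Ms4a6c are not fully its own. Of its 50-base windows, 49.6% lie in sequence shared with BE692007, a transcript annotated on the opposite strand (chromosome 19, 11470166 to 11484578). No strand setting is stated, and in these counts reads from the 2 cannot be told apart where they overlap. BE692007 stood at 5.7, 0.516 and 2.74 CPM in naive WT, 7.01, 20.8 and 9.76 in saline WT, 11.1, 3.84 and 7.54 in naive KO and 58.4, 98.7 and 24.5 in saline KO. It passed the test in KO (3.02 ± 0.72, adjusted p = 0.0282) and not in WT (2.07 ± 0.70, adjusted p = 0.147). The paralog Ms4a6d also rose in WT (1.34 ± 0.32, adjusted p = 0.0368) and in KO (2.38 ± 0.33, adjusted p = 0.00134).

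Csf3r (chromosome 4, 126024550 to 126044440), although listed as a neutrophil gene, was abundant in every sample and moved down. It stood at 670.0, 794 and 802 CPM in naive WT and 474, 268 and 393 in saline WT, then 460.0 and 487 in AIBP WT. In KO the values were 702, 794 and 776 CPM in naive, 273, 249 and 297 in saline and 377, 262 and 364 in AIBP. All cisplatin samples lay below all naive samples of their genotype. The log2 fold change was -1.0 ± 0.19, adjusted p = 0.0132 in WT and -1.47 ± 0.19, adjusted p = 0.00106 in KO. In WT the call was lost without sample 5 (-0.80, adjusted p = 0.059) or sample 6 (-1.03, adjusted p = 0.0507), and without both (-0.62, adjusted p = 0.624). The other 9 neutrophil genes summed to at most 15.2 CPM in any sample, so nearly all the counts of the list were those of Csf3r, and the 15 microglial genes summed lower in the same samples. Their part in this fall was not tested.

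Ccr1 was also present in every sample. It stood at 30.1, 49.7 and 32.6 CPM in naive WT, 45.2, 148 and 141 in saline WT and 53.5 and 54.4 in AIBP WT. In KO it was 17.5, 23.2 and 32.8 CPM in naive, 95.1, 214 and 65.1 in saline and 71, 179 and 166 in AIBP. The KO groups did not overlap and the rise was called (log2 fold change 2.35 ± 0.51, adjusted p = 0.0169), but not with limma-voom (adjusted p = 0.0574), without naive KO 1 or 2 (0.0803 and 0.0801), without saline KO 5 (1.71, 0.0908) or without technical replicate 2 or 3 (0.0633 and 0.0613). In WT it was not called (1.57 ± 0.50, adjusted p = 0.118), with sample 4 inside the naive range. It was called there by DESeq2 (0.0188), and by edgeR with no filter (0.0454), a stricter filter (0.028) or without sample 4 (0.0312).

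**Figure D3:**
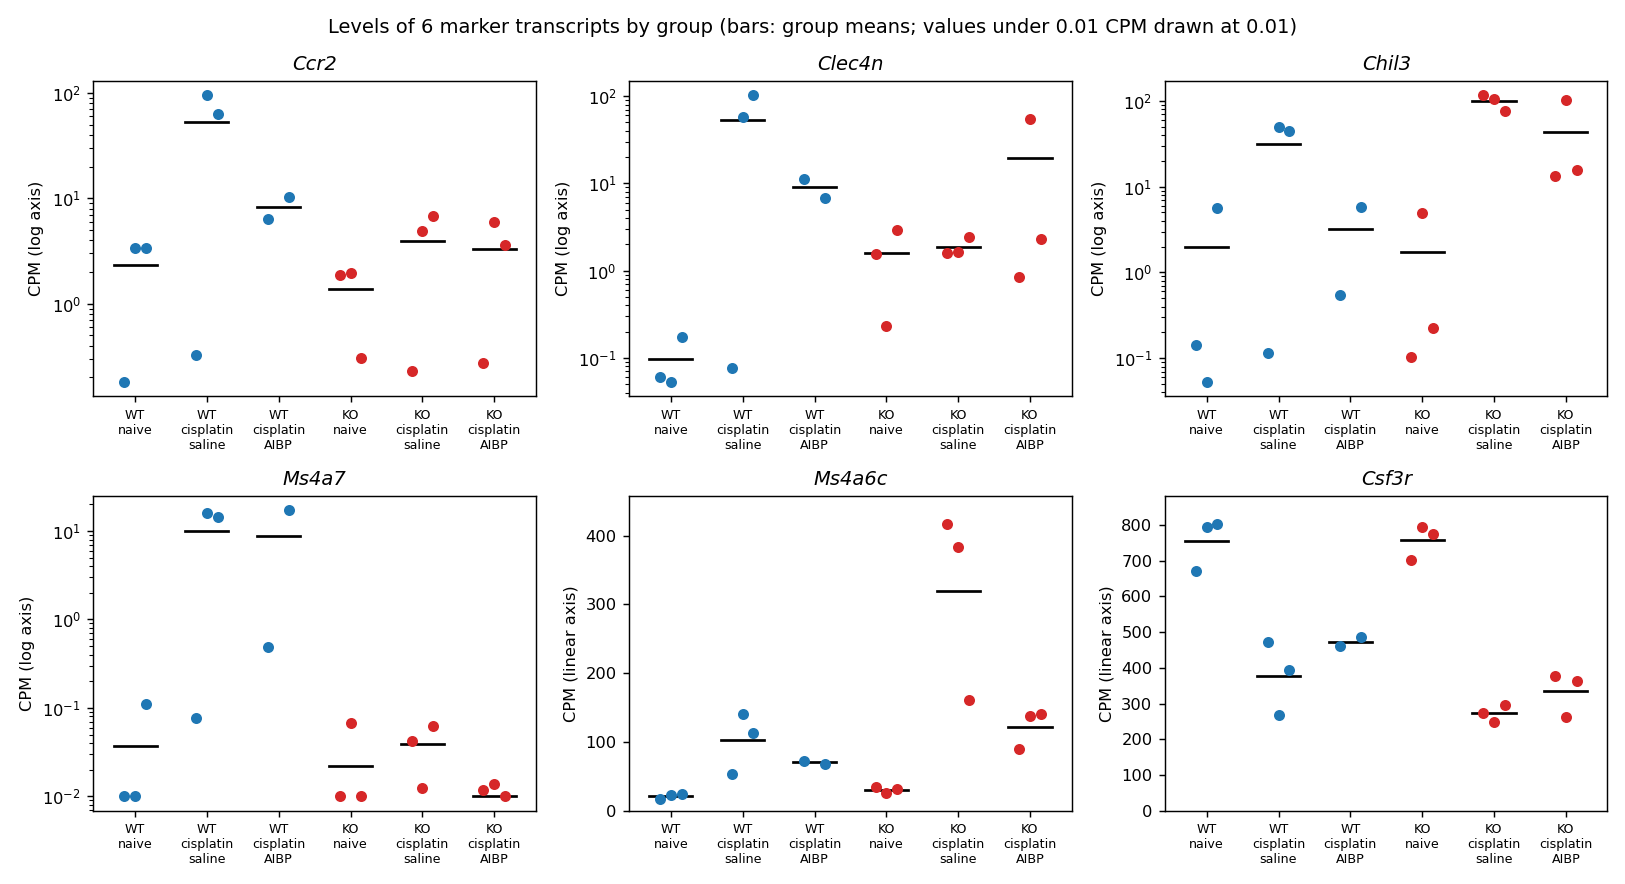
CPM of 6 members in each sample (points; blue WT, red KO) by group, with group means as bars, on log axes for Ccr2, Clec4n, Chil3 and Ms4a7 and linear axes from 0 for Ms4a6c and Csf3r. In saline WT, 1 sample lies apart from the other two for Ccr2, Clec4n, Chil3 and Ms4a7, while Ms4a6c and Csf3r shift in every sample.

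Among the 16 monocyte members, 2 were called higher in WT after cisplatin (Clec4n and Crip1). A log2 fold change above 0 was seen for 15, with a median over the 16 of 2.39 against -0.01 over all genes tested. The members were chosen with earlier results of these data known, so this count and median are no test. The share of all genes above 0 is not given. None of the 16 had saline values that all lay above naive, where 12% of all genes did. Clec4n stood at 0.0606, 0.0534 and 0.175 CPM in naive WT and 0.0762, 58.3 and 102 in saline WT (log2 fold change 9.06 ± 2.16, adjusted p = 0.0368). It stood at 11.2 and 6.79 CPM in AIBP WT, 1.56, 0.234 and 2.94 in naive KO, 1.58, 1.63 and 2.41 in saline KO and 0.835, 55.2 and 2.31 in AIBP KO. Only saline WT 5 and 6 and AIBP KO 8 passed 50 CPM.

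Crip1 stood at 13, 5.23 and 9.38 CPM in naive WT, 9.09, 77.2 and 48.7 in saline WT and 6.87 and 7.69 in AIBP WT (log2 fold change 2.29 ± 0.58, adjusted p = 0.0482, saline over naive). KO samples held 8.58, 12.3 and 15.8 CPM in naive, 13.5, 26.4 and 19.7 in saline and 10.9, 16.1 and 15.3 in AIBP. Without samples 5 and 6 its WT difference was 0.03. The call of Clec4n and of Crip1 was also lost without any 1 of the naive WT samples, and without sample 5 or 6 alone (adjusted p = 0.0983 and 0.0909 for Clec4n, 0.261 and 0.124 for Crip1).

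Ccr2, the receptor that draws monocytes from blood, was high in 2 samples. It stood at 0.182, 3.42 and 3.36 CPM in naive WT and 0.324, 95.3 and 62.8 in saline WT, and at 6.41 and 10.2 in AIBP WT. KO samples had 1.89, 1.97 and 0.305 CPM in naive, 0.227, 4.88 and 6.74 in saline and 0.271, 6 and 3.59 in AIBP. The WT groups overlapped and it was not called by edgeR (log2 fold change 4.5 ± 1.66, adjusted p = 0.182), nor was it in KO (1.51 ± 1.48, adjusted p = 0.645).

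Lyz2, the myeloid lysozyme gene, stood at 368, 549.8 and 588 CPM in naive WT and 373, 1501 and 1106 in saline WT, so that samples 5 and 6 again lay above all others. It stood at 535 and 485 CPM in AIBP WT, 495, 737 and 731 in naive KO, 779, 608 and 737 in saline KO and 543, 785 and 612 in AIBP KO. Neither cisplatin contrast was called (0.98 ± 0.36, adjusted p = 0.181 in WT). Lyz2 shares 15.4% of its 50-base windows with Lyz1, which stood at 7.45 CPM in saline WT 5 and at 1.47 or less elsewhere.

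Ly6c2, a surface marker of classical monocytes, stood at 0.0404, 0 and 0.939 CPM in naive WT, 0.019, 7.9 and 13.9 in saline WT and 0.0442 and 0.0158 in AIBP WT. KO samples held 0, 0.0167 and 0.0161 CPM in naive, 6.49, 1.11 and 0.0752 in saline and 0.0353, 6.54 and 0 in AIBP. It was low in most samples and passed 5 CPM in saline WT 5 and 6, saline KO 4 and AIBP KO 8. Saline KO held 553 counts against 2 in naive KO, a ratio of 216 (95% counting interval 59.4 to 1780). EdgeR did not call this difference (adjusted p = 0.191), and DESeq2 did (log2 fold change 7.86, adjusted p = 0.0095).

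Plac8, a small protein of monocytes and granulocytes, stood at 0.93, 1.53 and 0.0478 CPM in naive WT, 0.667, 7.9 and 5.64 in saline WT and 1.35 and 0.791 in AIBP WT. In KO the values were 0.31, 2 and 1.86 CPM in naive, 0.441, 2.58 and 3.75 in saline and 0.835, 2.16 and 2.44 in AIBP. Its groups overlapped in both cisplatin contrasts, and neither was called.

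Chil3, a chitinase-like protein of monocytes, neutrophils and activated macrophages, had another pattern. It stood at 0.142, 0.0534 and 5.67 CPM in naive WT, 0.114, 49.4 and 44.7 in saline WT and 0.553 and 5.81 in AIBP WT. KO samples had 0.103, 4.89 and 0.225 CPM in naive, 116, 106 and 76.9 in saline and 13.3, 102 and 15.7 in AIBP. All 3 saline KO samples lay above every naive KO sample and above every saline WT sample, although Ccr2 was at 6.74 CPM or less in the same KO samples. The difference in KO was not called by edgeR (log2 fold change 5.84 ± 2.03, adjusted p = 0.133), and was by DESeq2 (5.84, adjusted p = 0.00822). Chil3 shares 26.9% of its windows with other genes, mainly Chil4, which held 0 in every sample but AIBP KO 8 (0.0137 CPM).

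The other monocyte members were not called by edgeR in any contrast. In saline WT against naive WT, DESeq2 called Hp (adjusted p = 0.000389), Ms4a4c (0.0285) and S100a6 (0.0276), and edgeR called Hp with no filter (0.0352) or a stricter one (0.0337). Across the 17 samples, the extracellular matrix gene Vcan ranged from 0 to 17 CPM, the hyaluronan receptor Cd44 from 0.95 to 28, the integrin Itga4 from 0.101 to 11.2 and Ms4a4c from 1.62 to 43.9. The aspartic protease Napsa ranged from 0.019 to 10.9 CPM, haptoglobin (Hp) from 0 to 20.4, and the calcium-binding S100a4 and S100a6 from 0 to 1.24 and from 0.0606 to 23.2. Vcan and Cd44 were highest in AIBP KO 8, and Napsa was highest in naive KO 2. S100a4 shares 47.4% of its windows with the gene model Gm42674, so its low level is uncertain. Hp held 14.3 CPM in naive KO 2 and at most 0.0344 in the other naive KO samples.

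In KO, 1 of the 16 monocyte members was called after cisplatin (Ccr1), and 4 had groups that did not overlap (Ly6c2, Chil3, Cd44 and Ccr1), where 12% of all genes lay wholly higher. The median log2 fold change of the 16 was 0.79 against -0.04 over all genes, which is likewise no test. Of a further 24 monocyte genes, 22 were tested: Fcgr4, an IgG receptor, was called in WT (1.84 ± 0.37, adjusted p = 0.0167) and in KO (2.20 ± 0.37, adjusted p = 0.00425), and Fn1, fibronectin, in KO (6.48 ± 1.43, adjusted p = 0.0184).

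Apart from Ms4a6c, given above, border macrophage genes ranged from 0 counts (Lyve1) to a highest value of 80.8 CPM (F13a1). Lyve1, a hyaluronan receptor of perivascular macrophages, had 0 counts in all 51 libraries. If counting could give it reads, this allows at most 0.00275 CPM over the 1092 M counts of the series (3 counts, counting error only). Cd163, the haemoglobin scavenger receptor, had 12 counts in all: its values were 0, 0 and 0.0318 CPM in naive WT, 0, 0 and 0.0817 in saline WT, 0.0142, 0.037 and 0 in saline KO and 0 in AIBP WT and naive KO. In AIBP KO they were 0, 0 and 0.0137. Mrc1, the mannose receptor, stood at 1.78, 0.0534 and 0.812 CPM in naive WT, 0.0762, 13 and 0.0981 in saline WT, 0.309 and 4.73 in AIBP WT, 0.12, 0.951 and 0.113 in naive KO, 0.114, 3.82 and 1.5 in saline KO and 0.0235, 14.1 and 0.0274 in AIBP KO. It passed 10 CPM only in saline WT 5 and AIBP KO 8, and was at 0.0981 CPM in saline WT 6, where Ccr2 and Clec4n were high.

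Pf4, platelet factor 4, is a chemokine of platelets that border macrophages also make. It stood at 0, 0.0534 and 0.0318 CPM in naive WT, 0.343, 40.6 and 31.6 in saline WT and 0.155 and 0.0158 in AIBP WT. In KO the values were 0.189, 0.0167 and 0.0161 CPM in naive, 0.0142, 0.0123 and 1.52 in saline and 0.0353, 25 and 0.0411 in AIBP. Only saline WT 5 and 6 and AIBP KO 8 passed 2 CPM. The WT groups did not overlap, but edgeR did not call the difference (log2 fold change 9.60 ± 2.99, adjusted p = 0.111). It was called by DESeq2 (adjusted p = 0.000316) and by edgeR with no filter (0.0304) or a stricter one (0.0328). The 9 platelet genes summed to 45.3 and 59.3 CPM in samples 5 and 6 against 95.2 to 137 in naive WT, and their part in the levels of Pf4 was not tested.

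Ms4a7, an MS4A protein of macrophages of the borders and of monocyte descent, was seen almost only in WT samples. It stood at 0, 0 and 0.111 CPM in naive WT, 0.0762, 15.9 and 14.2 in saline WT and 0.486 and 17.2 in AIBP WT. The 9 KO samples held 0, 0.0668 and 0 CPM in naive, 0.0426, 0.0123 and 0.0627 in saline and 0.0118, 0.0137 and 0 in AIBP. AIBP KO 8, with Clec4n at 55.2, Pf4 at 25 and F13a1 at 34.9 CPM, thus held Ms4a7 at 0.0137. Saline KO lay below saline WT in every sample without a call by edgeR (log2 fold change -7.94 ± 2.17, adjusted p = 0.303), and with one by DESeq2 (-8.03, adjusted p = 0.000594).

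Cbr2, a carbonyl reductase found in some tissue macrophages, was higher in KO than in WT in the naive and the saline samples, without overlap. It stood at 0, 0 and 0.0318 CPM in naive WT, 0.019, 0.0161 and 3.19 in saline WT and 0.309 and 0.0949 in AIBP WT. KO samples had 8.3, 4.94 and 2.19 CPM in naive, 12.3, 4.12 and 5.7 in saline and 2.15, 0.0137 and 1.42 in AIBP. Naive KO held 915 counts against 2 in naive WT, a ratio of 427 (95% counting interval 118 to 3540), and the 3 naive KO samples all lay above the 3 WT ones, as they did for 5.49% of all genes. EdgeR did not call this difference (log2 fold change 8.60 ± 2.30, adjusted p = 0.789), and DESeq2 did (8.87, adjusted p = 0.000603). Cbr2 shares 12.1% of its windows with Gm11771.

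F13a1, coagulation factor XIII A chain, ranged from 0 to 80.8 CPM and was highest in saline WT 5 and 6 (80.8 and 49.2). In saline KO it stood at 23.1, 13.6 and 13.2 CPM, above all naive KO samples (0.12, 0.0501 and 6.62) without a call (2.88 ± 2.02, adjusted p = 0.479). Clec10a, a galactose-type lectin, had 138 counts in the series, 135 of them in saline WT (3, 89 and 43 in samples 4, 5 and 6). By counting error alone this is at least 43.1-fold above the 0 counts of naive WT (3 counts over the group). EdgeR did not call the difference, and limma-voom did (adjusted p = 0.0192). The border macrophage members without an overlap after cisplatin were Pf4, Ms4a6c and Clec10a in WT and F13a1 and Ms4a6c in KO, where 12% of all genes lay wholly higher in each genotype. From a further 24 genes of these cells, 20 were tested. Dab2, an endocytic adaptor, was called higher in WT (3.36 ± 0.59, adjusted p = 0.00805) and KO (2.37 ± 0.57, adjusted p = 0.0285), as was Cd74, the MHC class II invariant chain, in WT (2.44). Hpgd, which degrades prostaglandins, was lower in both (-1.18 and -1.83) and Igfbp4 in KO (-2.23).

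The neutrophil genes differed among themselves, with 6 of the 10 under 1 CPM in every sample. S100a9 and Retnlg are listed at 0 in all 51 libraries, although S100a8 had counts. Whether the annotation used for counting could have given them reads is not known, so these zeros, and that of Lyve1, are not read as a level. Ngp had 7 counts, all in AIBP WT 7 (0.155 CPM), Cxcr2 had 30, Camp 59 and Ltf 67. Camp reached 0.670 CPM in AIBP KO 7 and Ltf 0.551 in naive KO 2, and neither reached 1 CPM anywhere.

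S100a8, whose protein pairs with that of S100a9, stood at 0.019, 2.43 and 1.86 CPM in saline WT and 0 in every naive WT and AIBP WT sample. Saline WT held 266 counts against 0 in naive, at least 84.9-fold higher by counting error alone. Samples 5 and 6 held 151 and 114 of these counts and sample 4 held 1, and edgeR's adjusted p was 0.113. KO samples had 0.0172, 0.634 and 0.0321 CPM in naive, 3.57, 5.98 and 1.69 in saline and 0.2, 0 and 0 in AIBP, and no contrast was called. Mmp8, neutrophil collagenase, stood at 0, 0.0178 and 0 CPM in naive WT, 0, 12.7 and 8.89 in saline WT, 0.0221 and 2.44 in AIBP WT, 0.0344, 0 and 0.0161 in naive KO, 1.15, 0.0123 and 0 in saline KO and 0, 3.42 and 0 in AIBP KO. Naive WT held 1 count of it and saline WT 1333 (ratio 1280, 95% counting interval 229 to 50500), a difference that was not called (9.83 ± 3.66, adjusted p = 0.187).

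Lcn2, the siderophore-binding lipocalin, stood at 9.28, 0.0123 and 2.41 CPM in saline KO and 0.0471, 1.05 and 0 in AIBP KO, and at 0.0643 CPM or less in every WT and naive sample (0, 0.0643 and 0 in saline WT, 0.0221 and 0 in AIBP WT, 0, 0.0167 and 0.0321 in naive KO, 0 in naive WT). Lcn2 is also made by activated glia. Saline KO held 846 counts against 3 in naive KO, a ratio of 220 (95% counting interval 75 to 1070). The difference was not called by edgeR (7.73 ± 2.77, adjusted p = 0.159), and was by DESeq2 (7.90, adjusted p = 0.0168). Of 24 further neutrophil genes, 15 were tested. Lrg1, a secreted glycoprotein, rose in WT (6.21 ± 1.01, adjusted p = 0.00528) and in KO (8.71 ± 1.06, adjusted p = 0.000596), where it stood at 106, 64.8 and 36.7 CPM. Il1r2, the decoy receptor for interleukin-1, rose in KO (6.16) and stood at 243, 205 and 8.31 CPM there, and Olfm4 fell (-9.43).

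The 3 technical libraries of each sample showed whether a marker was spread over the sample. Taking the samples in which a member reached 1 CPM, the fullest of the 3 libraries held a median of 38.4% of Csf3r, 39.5% of Lyz2, 40.7% of Ms4a6c and 45.2% of Ccr1 (in CPM, summed over the 3). The same share was 95.9% for Chil3, 98.1% for Mmp8, 86.8% for Ly6c2, 85.6% for Pf4 and 83.4% for Hp. Each library was made from its own amplified cDNA or from a shared one; the sources used here do not say which.

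**Figure D4:**
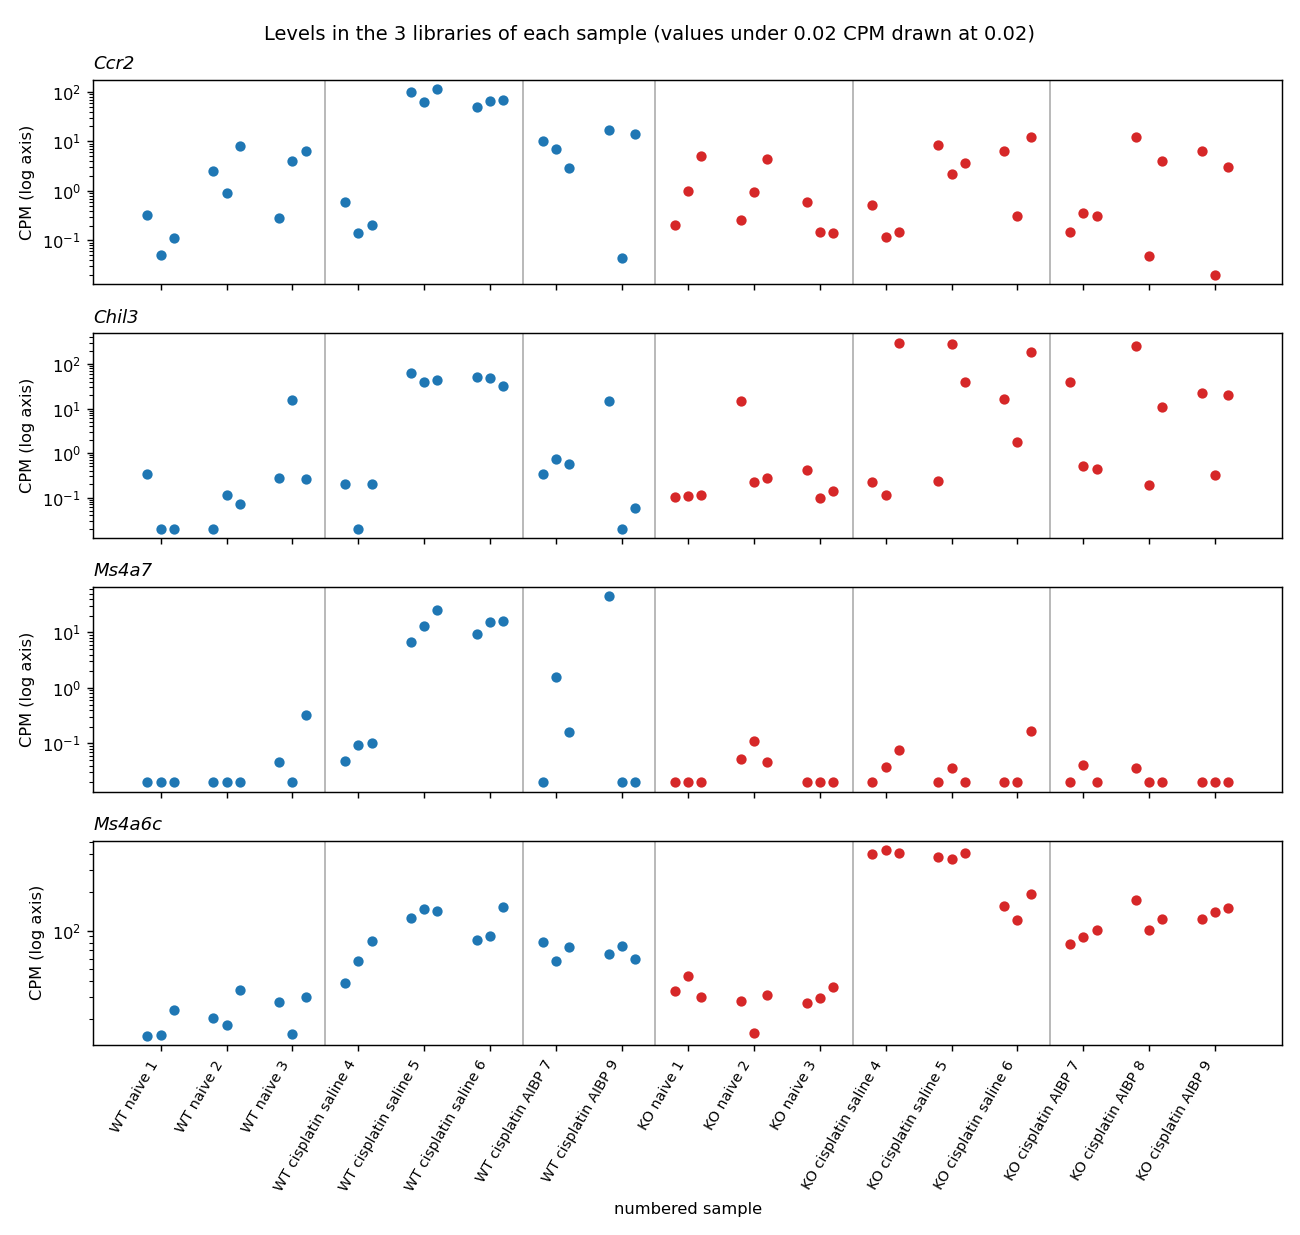
CPM of Ccr2, Chil3, Ms4a7 and Ms4a6c (log axes) in the 3 technical libraries of each of the 17 samples (points; blue WT, red KO). Chil3 in saline KO is highest in 1 library of each sample, whereas Ccr2, Chil3 and Ms4a7 are high in all 6 libraries of saline WT 5 and 6, and Ms4a6c is present in every library.

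In saline WT 5 and 6, Ccr2, Chil3 and Ms4a7 were present in all 6 libraries. Ccr2 stood at 98.4, 61.4 and 114 CPM in the 3 libraries of sample 5 and 50.5, 64.8 and 67.7 in those of sample 6, and Chil3 at 62.1, 39 and 44.6 and 52.4, 49.4 and 32.5. Ms4a7 stood at 6.59, 12.9 and 25.3 and 9.54, 15.5 and 15.9 CPM. Pf4 was less even, at 4.99, 100.3 and 26.3 and 0.121, 4.27 and 83.3, and Mmp8 stood at 22.4, 0.0567 and 13.2 and 4.77, 17.9 and 2.05. Other markers were missing from some of these libraries: Ly6c2 stood at 17.9, 0 and 4.94 and 1.63, 32.2 and 3.27 CPM, and Hp at 24.5, 4.7 and 27.5 and 8.57, 0.0855 and 9.69. S100a8 stood at 2.81, 2.89 and 1.7 and 0.785, 4.32 and 0 CPM and Clec10a at 0, 0 and 3.61 and 2.6, 0 and 0, the latter in 1 library of each sample.

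In saline KO, Chil3 lay largely in 1 library of each sample. It stood at 0.227, 0.115 and 304 CPM in the libraries of sample 4, 0.241, 279 and 39.4 in sample 5 and 16.3, 1.81 and 189.7 in sample 6. The same library of sample 4 held Ly6c2 at 17, Hp at 35.7, Lcn2 at 23.4 and F13a1 at 51.1 CPM, and the fullest library of sample 6 held Hp at 16.9, Lcn2 at 4.14 and F13a1 at 27.7. In sample 5 Chil3 was highest in technical replicate 2, while F13a1 was highest in replicate 3 (32 CPM). The 2 lanes of these libraries held like numbers of reads: the fullest library of sample 4 held 3995 and 4149 counts of Chil3, and that of sample 6 held 2830 and 2849.

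Ms4a6c was present in all of the same libraries, at 399.6, 433 and 408 CPM in saline KO 4, 379.8, 368 and 412 in sample 5 and 157, 121 and 194 in sample 6. Leaving out the 4 libraries with 100 CPM or more of Chil3 (1 in each saline KO sample and 1 in AIBP KO 8), an alternative chosen after seeing the data, kept the 3 calls in KO: Ms4a6c 3.40, Ccr1 2.32 and Csf3r -1.41. In WT it left Ms4a6c and Csf3r of the 4 calls, although no WT library was removed (adjusted p = 0.0635 for Clec4n and 0.0765 for Crip1). S100a8 lay in all 3 libraries of saline KO 4 at 2.1, 3.28 and 4.78 CPM, and in 1 library of sample 6 (0.0401, 0.0394 and 4.44).

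A few markers of other samples rested on 1 library too. In AIBP WT 9, Ms4a7 stood at 44.9, 0 and 0 CPM, with 597 and 492 counts in the 2 lanes, and Chil3 stood at 15.1, 0 and 0.0592 in the same 3 libraries. In AIBP KO 8, Clec4n stood at 43.3, 0.243 and 113 CPM and Pf4 at 26, 0 and 44.5, so that 2 of its 3 libraries held both. Chil3 in that sample was 258, 0.194 and 10.8 CPM.

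Whether AIBP changed the markers was asked within each genotype. Here and between genotypes, shares of all genes called are from edgeR, and none is given for DESeq2 or limma-voom. In WT, edgeR called 0 of 28 members between AIBP and saline, where 0% of all genes were called; 6 had an unadjusted p under 0.05 (3.71% of all genes did), all lower, and DESeq2 called 2 (Crip1 and Hp) and limma-voom 0. Crip1 was lower in both AIBP samples than in any saline sample (log2 fold change -2.63 ± 0.69, adjusted p = 0.996, with edgeR), as were Pf4, Clec10a and S100a8, where 9.14% of all genes lay wholly lower and 9.1% wholly higher. These differences were taken against a group in which samples 5 and 6 stood apart. In sample 4 of that group Pf4 had 18 counts, Clec10a 3 and S100a8 1.

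In KO, edgeR called 0 members between AIBP and saline, where 0.00977% of all genes were called; 2 had an unadjusted p under 0.05 (Ms4a6c and S100a8, both lower, where 6.62% of all genes did), DESeq2 called 1 (Ms4a6c, -1.38, adjusted p = 0.0302) and limma-voom 0. Ms4a6c was lower in all 3 AIBP samples than in any saline sample (log2 fold change -1.39 ± 0.36, adjusted p = 0.706, with edgeR), where 4.43% of all genes lay wholly lower and 4.17% wholly higher. S100a8 and Cbr2 were also lower without overlap (-5.76 ± 2.28, adjusted p = 0.706 for S100a8 and -2.62 ± 1.68, adjusted p = 0.768 for Cbr2).

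Genotype was compared at each treatment. Between naive KO and naive WT, edgeR called 0 members (0.00489% of all genes); 4 had an unadjusted p under 0.05 (5.96% of all genes did), all higher in KO (Clec4n, Hp, Cbr2 and S100a8), and DESeq2 called 2 (Cbr2 and Hp) and limma-voom 0. Clec4n, Cbr2, Ms4a6c and S100a8 (1, 38 and 2 counts in KO, 0 in WT) were higher in all 3 KO samples than in any WT sample, where 5.49% of all genes were. Between saline KO and saline WT, it called 0 (0.044% of all genes, 0.0195% higher and 0.0244% lower), with 8 under an unadjusted p of 0.05 (8.98% of all genes), 2 higher and 6 lower in KO, and 3 called by DESeq2 and 0 by limma-voom. Those 3 were Ms4a6c, higher in KO (edgeR 1.65 ± 0.37, adjusted p = 0.175), and Clec4n and Ms4a7, lower in KO. Chil3, Itga4, Cbr2 and Ms4a6c were higher in all 3 KO samples than in any WT sample (6.1% of all genes were), and Ms4a7 and Clec10a were lower in all (6.4%). Saline WT 4 held 4 counts of Ms4a7 and 3 of Clec10a, so both of these orderings rest on few counts. Ms4a6c was called by edgeR with no filter (adjusted p = 0.0405) or a stricter one (0.0455).

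Between AIBP KO and AIBP WT, edgeR called 0 members (0% of all genes), with 4 under an unadjusted p of 0.05 (6.35% of all genes), 2 in each direction, 1 called by DESeq2 (Ms4a7, -10.01, adjusted p = 0.00079) and 0 by limma-voom. With 3 KO samples against 2, Chil3, Itga4, Lyz2, Hp, Ccr1, Crip1 and Ms4a6c lay wholly higher in KO (10.8% of all genes) and Ccr2, Napsa, Ms4a7 and Csf3r wholly lower (11.4%). For the difference between genotypes in the cisplatin effect, edgeR called 0 (0% of all genes), with 6 under an unadjusted p of 0.05 (7.63% of all genes), 1 called by DESeq2 (Clec4n, -8.89, adjusted p = 0.00616) and 0 by limma-voom. With edgeR, this difference was -8.81 ± 2.50, adjusted p = 0.607 for Clec4n, 1.13 ± 0.51, adjusted p = 0.638 for Ms4a6c and -0.48 ± 0.27, adjusted p = 0.727 for Csf3r. For the difference in the AIBP effect, edgeR called 0 (0% of all genes), with 4 under an unadjusted p of 0.05 (6.28% of all genes), 1 called by DESeq2 (Pf4, 12.22, adjusted p = 0.0193) and 0 by limma-voom. AIBP KO 8 is the sample of its group in which Pf4 was high.

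Levels of other cells' markers differed beside these results. The 12 proliferation genes summed to 207 to 344 CPM in naive WT and 795 to 1134 in saline WT, where Mcm3, Mcm2, Top2a and Mcm5 were called higher, and to 247 to 303 and 326 to 642 in KO, where Mcm2 was. The 10 dendritic cell genes summed to 48 to 69.2 CPM in naive WT and 56.4 to 75.7 in saline WT, with 0 of 7 tested called. T and NK cell genes summed to 0.162 to 5.56 CPM in all samples, erythroid genes to 0 to 3.2 and mast cell and basophil genes to 0 to 0.914. Summed levels of 8 endothelial genes were 30.9 to 61.7 CPM in naive and 10.2 to 16.2 in saline, of 8 astrocyte genes 265 to 446 and 143 to 313, and of 8 oligodendrocyte genes 468 to 935 and 227 to 628. The 8 neuronal genes summed to 5.66 to 19.4 CPM in naive and 1.09 to 11.9 in saline, and 8 B cell genes to 819 to 1585 and 296 to 1037. In KO, Ighm carried most of the B cell sum, with means of 1032 CPM in naive and 375 in saline. Of the 8 B cell genes, 4 were tested. Called lower were the astrocyte gene Slc1a3 in WT and, in KO, the B cell gene Ighm, the oligodendrocyte gene Mbp and the platelet gene Gp9. Their part in the results was not tested.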

How the data were processed

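RNA of sorted lumbar spinal microglia was primed with oligo(dT), amplified by PCR, made into Nextera XT libraries and sequenced as paired reads on a NovaSeq, per the labels' protocols. The submitters' processing notes name STAR 2.6.0a, DESeq2 and the build GRCm38, beside bcl2fastq and the quality tools FastQC 0.11.17 and MultiQC 1.7. They name no counting tool and no strand setting. The authors deposited raw counts of 53715 genes in 102 runs. They also deposited a normalized signal for 18856 genes, which equals the raw counts over 1 size factor per run and was not tested. The 6 runs of a sample (3 technical libraries, 2 lanes) were summed to 17 samples of 45.1 to 76.6 M counts (runs 4.51 to 15.2 M).

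Tests used edgeR 4.0.16 in R 4.3.3: TMM, filterByExpr (20461 genes), a group means model over all 17 samples and the two-sided quasi-likelihood F test, with Benjamini-Hochberg adjustment over all genes and a threshold of 0.05, in 9 contrasts. The model was checked on simulated counts. Alternatives were DESeq2 1.42.0, limma-voom (limma 3.58.1), no or a stricter filter (10 CPM in 2 samples), only the groups compared, replicate blocks and leaving out samples or libraries. Ratios against 1 to 3 counts carry 95% counting intervals, which cover counting error only, since PCR copies carry no molecular identifiers. Lower bounds against groups without counts also leave out the spread among samples.

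Symbols and positions are from GENCODE M21 on GRCm38 (53620 genes named, 95 not). Shared sequence is the percent of a gene's 50-base windows found in other genes' transcripts. Upstream sequences are RefSeq's on GRCm38.p6. The members and lists were chosen with earlier results of these data known. All 35 members are named. Each called member and each defining marker (6 per cell type) is given in every sample. From other lists, up to 4 called genes with the smallest p are given. Abca1 and Abcg1 are given as the targeted genes and do not check the deletion. Numbers shared by WT and KO samples did not pair them (correlations of deviations -0.154 to 0.193).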

Additional observations from a re-analysis of the deposited data

Results flagged for a closer look

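The cisplatin effect on Clec10a went in opposite directions in the 2 genotypes: every saline WT sample lay above the naive WT mean (0.730 against 0 CPM) and every saline KO sample below the naive KO mean (0 against 0.00556 CPM). The difference between the effects was -10.5 on the log2 scale, and edgeR did not call it (adjusted p = 0.607). The KO side rests on 1 count in naive KO 2, and on the WT side saline WT 4 held 3 counts.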

How the results depend on the processing

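The counts of members called in this section are given without the share of all genes called in the same setting. Members called in saline WT against naive numbered 4. They were 14 with DESeq2, 2 with limma-voom, 8 with no filter, 8 with a stricter filter, 0 with only the groups compared, 0 without samples 5 and 6, and 2 without the libraries holding most Chil3 (added after seeing the data). Leaving out 1 numbered sample or 1 technical replicate gave 1 to 8: 1 without sample 5 or 6, 8 without sample 4, 2 without naive WT 1, 2 or 3 and 2 without technical replicate 1. In KO the 3 calls became 6 with DESeq2 and 2 to 4 when leaving out 1. Without samples 5 and 6, which were chosen for removal with their levels known, Clec4n in WT reversed to -0.30 and Crip1 dropped to 0.03, while Ms4a6c (1.39) and Csf3r (-0.62) were no longer called. Contrasts with 0 calls had, with DESeq2, 2 in WT AIBP against saline, 1 in KO AIBP against saline, 2 in naive and 3 in saline between genotypes, 1 in AIBP between genotypes and 1 in each difference of effects. Saline KO against saline WT had 1 call with no filter, 1 with the stricter filter and 0 to 1 when leaving out 1 (1 without saline KO 6); the cause was not tested. In a left-out fit with 1 sample in a group, that sample is assumed to vary like the others.

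With technical libraries as units and their number as a replicate block, the calls were 16 in WT and 6 in KO after cisplatin, 2 in KO AIBP against saline, 1, 6 and 1 between genotypes in naive, saline and AIBP, and 1 in each difference of effects. Libraries of a sample are not independent, and their numbers did not deviate together (mean correlation 0.000698). With the sample number as a replicate block, 0 members were called in each of the 3 genotype contrasts, as without it. Depth limits genes with few counts. Lyve1, with 0 counts, could be at up to 0.00275 CPM by counting error alone, provided that the counting could give it reads.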
